A study of Rattus norvegicus with 16 samples.

Results

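Conditioned TRKA cells, called TRKA-TGF, were compared with p75 cells on 8 of the 16 arrays of the series, 4 for each population. The arrays were chosen by their titles, and no measured value entered that choice. Both populations came from cultures of the olfactory mucosa of male Fischer rats, the nasal tissue in which olfactory neurons and the glia around their axons lie. The p75 cells were grown with the culture protocol that was also used for the TRKA and CD90 populations of the series, and were sorted for p75, the low-affinity neurotrophin receptor. The conditioned population was induced with transforming growth factor alpha (TGF-alpha) and sorted for TRKA. Purity after the sort was 93 to 97%, per the labels. The labels call the 4 samples of a population biological replicates. The sources used here do not give the dose and duration of the conditioning, the age of the rats or which samples came from separate animals, so p-values measure only the spread between these samples.

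Olfactory ensheathing glia are crest-derived glia that wrap the axons of olfactory neurons and, in culture, carry p75 on their surface. They resemble Schwann cells and are used in transplants for nerve and spinal cord repair. Macrophages of the mucosa take up dying neurons and cell debris, digest them in lysosomes and pass on the lipid and iron they contain. TGF-alpha is a ligand of the EGF receptor, which signals through Ras and the MAP kinases.

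Levels are given as log2 of the signal minus the 75th percentile of the array, so that 0 is the 75th percentile of the probes on that array and a step of 1 is a doubling. Differences are TRKA-TGF minus p75, with the standard error (SE) of the fit. A gene was called when its adjusted p, from limma with Benjamini-Hochberg adjustment over all genes tested, was under 0.05. A probe counted as measured on an array when the scanner software marked it as well above background.

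Of 20555 genes tested, 3155 were called, which is 15.3% of them. TRKA-TGF cells had 1736 genes higher (8.45%) and 1419 genes lower (6.9%) than p75 cells. The median difference over all genes was 0.19. Among the genes called, 1649 of the higher ones and 1304 of the lower ones had no overlap between the 4 arrays of one population and the 4 of the other. Over all genes tested, called or not, 3708 (18.0%) lay without overlap higher in TRKA-TGF and 2336 (11.4%) lower. Lack of overlap alone is therefore common in this comparison. The median size of a called difference was 3.67, and 1863 called genes differed by more than 3 log2 units. On 211 genes the probe was measured on all 4 TRKA-TGF arrays and on 0 p75 arrays, and on 295 genes the reverse held.

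The share of spots well above background was 68.4 ± 2.08% in TRKA-TGF and 70.02 ± 1.31% in p75 (mean ± SD, n = 4). The difference of −1.58 percentage points had p = 0.257 in a two-sided exact permutation test, where the smallest p the 70 assignments allow is 0.0286. Median signal was 187 to 219 on the p75 arrays and 133 to 170 on the TRKA-TGF arrays before scaling, and the 75th percentile was 1328 to 1519 and 997 to 1237, so neither range overlapped. The part of this signal gap in the differences was not tested. Replicates correlated across probes at r = 0.894 to 0.908 in TRKA-TGF and 0.843 to 0.893 in p75, against 0.686 to 0.729 between the populations. Over all genes, the SD between replicates had a median of 0.54 in TRKA-TGF and 0.65 in p75. The p75 arrays lay on one slide together with the TRKA arrays, and the TRKA-TGF arrays on another together with the CD90 arrays. Slide and population cannot be told apart in any value that follows. RNA was amplified by PCR before labelling, so the sizes of large differences are those of amplified material. In sorted bulk samples, fewer cells that express a gene and less of its RNA per cell cannot be told apart.

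**Figure D1:**
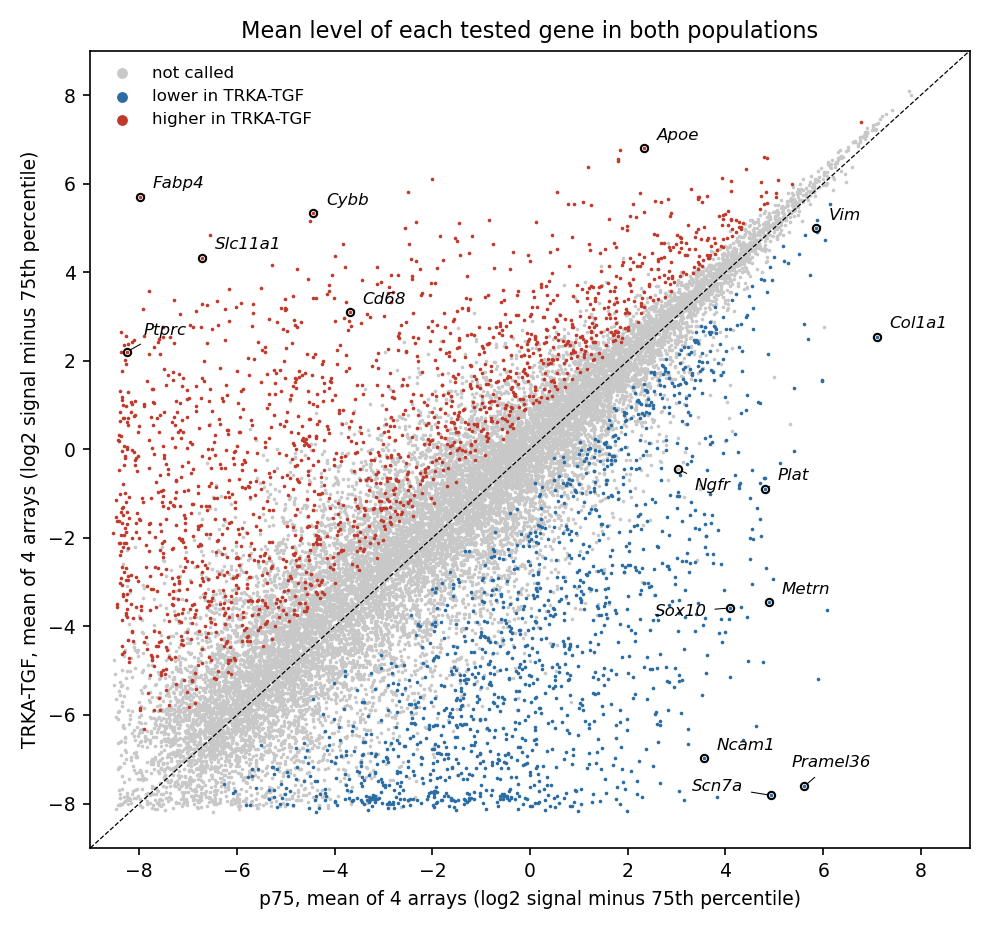
Mean level of each of the 20555 genes tested on the 4 p75 arrays (x axis) and the 4 TRKA-TGF arrays (y axis), both as log2 signal minus the 75th percentile of the array, with the 1736 genes called higher in red, the 1419 called lower in blue and equality dashed. Fabp4 and Slc11a1 lie at the upper left edge, Scn7a and Pramel36 at the lower right edge, and Ngfr among the genes not called.

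Genes of the sort markers p75 and CD90 were looked at first. Ngfr, which encodes p75 (Entrez 24596, rn4 chr10:84263082-84263141), stood at 3.17, 3.18, 3.08 and 2.68 on the p75 arrays and at 0.09, −0.36, −1.49 and −0.06 on the TRKA-TGF arrays. Each TRKA-TGF array lay below each p75 array, yet the transcript was measured on all 4 TRKA-TGF arrays. The difference of −3.48 (SE 1.14) was not called in the fit with all 16 arrays (adjusted p = 0.055), which takes its spread from the other populations too, and was called in the fit with only these 8 arrays (adjusted p = 0.000496).

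Thy1, which encodes CD90 (24832, chr8:47031186-47031646), was lower in TRKA-TGF (difference −5.18, SE 0.66, adjusted p = 7.8e-05). It was measured on all 4 p75 arrays, at −1.95, −1.66, −1.21 and −1.94, and on 1 TRKA-TGF array. Tgfa, the gene of the added factor (24827, chr4:120432206-120432265), stood at −0.17, −0.98, −0.79 and −1.05 in TRKA-TGF and at −1.55, −0.72, 0.23 and 0.04 in p75, and these ranges overlap (adjusted p = 0.872). A dimmer Tgfa probe was measured on 4 p75 and 0 TRKA-TGF arrays, with means of −2.71 and −7.43. Egfr, the receptor of TGF-alpha (24329, chr14:97788051-97788110), was measured on 2 TRKA-TGF arrays and 1 p75 array and was not called (adjusted p = 0.793).

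Both marker genes given for the comparison stood at its extremes. Fabp4, a cytosolic carrier of fatty acids in fat cells and macrophages (79451, chr2:93536175-93538589), stood at 5.67, 5.74, 5.73 and 5.69 on the TRKA-TGF arrays. On the p75 arrays it stood at −8.51, −8.45, −6.45 and −8.50 and was not well above background on any of them. Fabp4 was at least 3846-fold higher in TRKA-TGF (adjusted p = 1.41e-09). Scn7a, which encodes an atypical sodium channel found in glia (64155, chr3:48634739-48634798), stood at 4.93, 4.83, 4.96 and 5.01 in p75 and was not measured in TRKA-TGF, where its levels were −7.82, −7.31, −7.74 and −8.39. Across the series only p75 arrays measured Scn7a, so its probe was kept for testing through these arrays alone. Scn7a was at least 1763-fold lower, and its adjusted p of 2.21e-11 is conditional on that selection. Such a bound sets the mean of the brighter population against the lowest signal that counted as above background in the dimmer one, and is approximate.

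**Figure D2:**
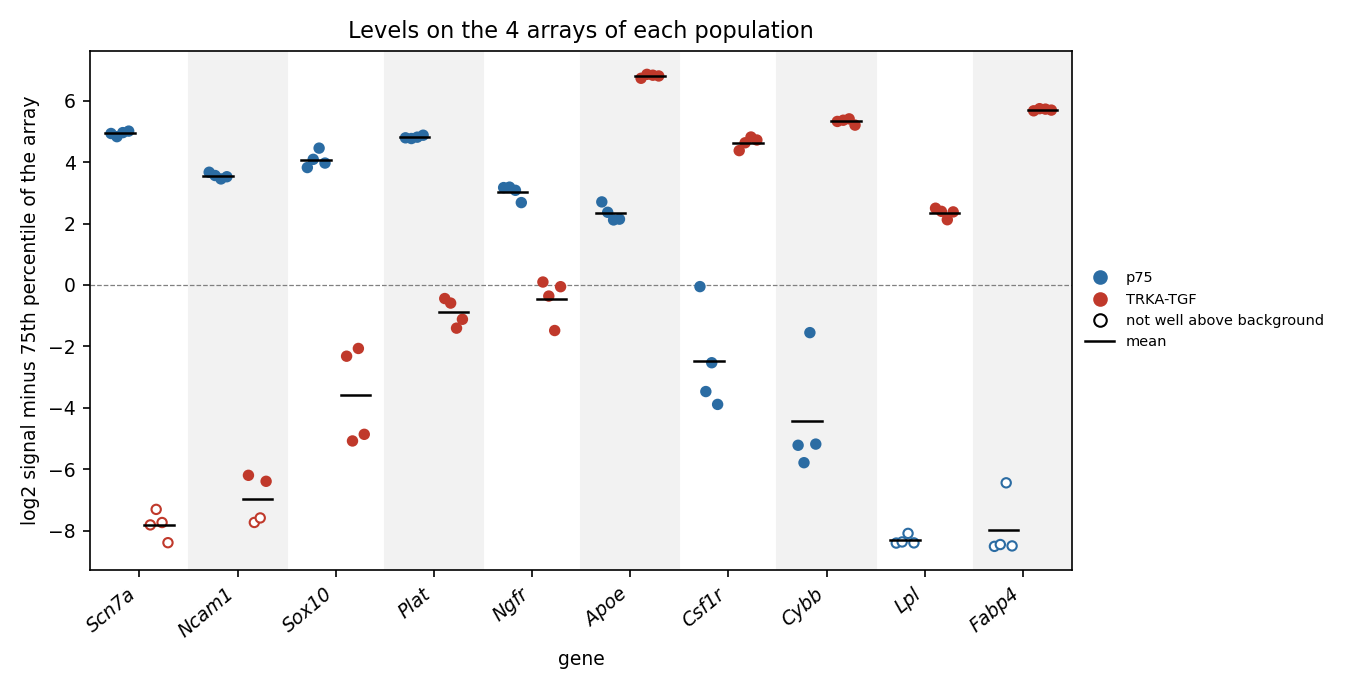
Level of 10 genes on each of the 4 p75 arrays (blue) and 4 TRKA-TGF arrays (red), as log2 signal minus the 75th percentile of the array, with open circles where the probe was not well above background and a bar at the mean. The populations do not overlap for any of the 10 genes, and the spread within a population is widest for Cybb and Csf1r in p75 and Sox10 in TRKA-TGF.

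The p75 cells held a glial set of genes that was low in TRKA-TGF cells. Of 25 ensheathing and Schwann glia markers tested, 22 were lower and 2 were higher in TRKA-TGF, against 6.9% and 8.45% of all genes. The median difference of the list was −5.88, against 0.19 over all genes. All 25 were measured on all 4 p75 arrays, and 12 of them on all 4 TRKA-TGF arrays. The members of this list and the later ones were chosen with earlier results of these data known. Their counts describe these genes and are no independent support. The shares of all genes, 6.9% lower and 8.45% higher, stand beside the counts of each later list too.

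Surface and adhesion genes of glia differed by large amounts. Ncam1, the neural cell adhesion molecule (24586, chr8:52822367-52822426), stood at 3.67, 3.56, 3.45 and 3.52 in p75 and at −6.20, −7.74, −7.59 and −6.40 in TRKA-TGF, where 2 arrays measured it (difference −10.53, SE 0.33, adjusted p = 9.1e-11). L1cam, the adhesion protein of non-myelinating glia and axons, was lower by 6.09, the cadherin gene Cdh2 by 7.39, Cdh19 by 5.98, and Cadm4, which holds Schwann cells to axons, by 7.58. For each of these 5 genes all 4 TRKA-TGF arrays lay below all 4 p75 arrays. Lgi4, a secreted factor of Schwann cell development, stood at 4.46, 4.45, 4.53 and 4.54 in p75 and at −4.79, −1.30, −2.54 and −1.30 in TRKA-TGF. The p75 values lie close together, whereas the TRKA-TGF values spread over several units.

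Intermediate filament, calcium-binding and lipid carrier genes of glia followed the same direction. Gfap, the filament protein of astrocytes and some peripheral glia, was lower by 7.72 and was measured on 1 TRKA-TGF array. S100b, a calcium-binding protein used as a glial marker, stood at 3.73, 3.72, 3.68 and 3.59 in p75 and at −1.77, −1.08, −0.77 and −0.37 in TRKA-TGF. That difference of −4.68 (SE 0.51, adjusted p = 1.75e-05) left S100b measured on all 8 arrays. Fabp7, the fatty acid carrier of immature glia, was lower by 7.52 and Nes, which encodes the progenitor filament nestin, by 5.08. Npy, the gene of neuropeptide Y, was lower too and was measured on 0 TRKA-TGF arrays. Vim, the filament vimentin of many cultured cells, differed least, at 5.86 in p75 and 4.99 in TRKA-TGF (−0.87, adjusted p = 0.00383).

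Both members of the glial list that were higher are also made by macrophages. Apoe, the apolipoprotein that carries cholesterol between cells, stood at 6.73, 6.86, 6.83 and 6.81 in TRKA-TGF and at 2.70, 2.37, 2.12 and 2.14 in p75, a 22.2-fold difference (adjusted p = 8.55e-09). Alcam, an adhesion molecule of leukocytes and glia, was higher by 3.13. The summed level of the list was 7.25 to 7.38 on the TRKA-TGF arrays, against 8.19 to 8.29 on the p75 arrays (log2 of the summed linear levels), and Apoe and Vim were its brightest members in TRKA-TGF.

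Transcription factors of neural crest glia were lower in 8 of 18 tested and higher in 0, with a median of −2.71. Sox10, which directs the fate of crest-derived glia (29361, chr7:117138840-117138899), stood at 3.82, 4.09, 4.46 and 3.97 in p75 and at −2.32, −5.08, −2.07 and −4.87 in TRKA-TGF. The difference was −7.67 (SE 1.36, adjusted p = 0.00123). The related Sox8 and Sox6 were at least 23.6-fold and 48.4-fold lower, and neither was measured on any TRKA-TGF array. Foxd3, a factor of crest progenitors, had a difference of −5.33, the retinoid X receptor gene Rxrg of −8.09, the inhibitor Id4 of −6.82 and Ets1 of −2.68. Sox2, a factor of neural progenitors, was lower by 2.73, a call that was lost under 7 of 18 alternative settings. Egr2, the regulator of the myelin programme, stood at −0.63 in TRKA-TGF and −3.28 in p75 and was not called (adjusted p = 0.14).

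Myelin genes were lower in 6 of 18, with a median of −1.57. Mog, a protein of the outer myelin surface, was lower by 6.92, the lipid enzyme Ugt8 at least 23.7-fold, Fa2h, which hydroxylates myelin lipids, by 2.07, and Cldn11 at least 5.28-fold. A second Fa2h probe, measured on all 4 p75 and on 0 TRKA-TGF arrays, differed by −6.40. The Fa2h call was lost under 1 of the 18 settings and the Cldn11 call under 9. The other 12, among them Pmp22 and Mag, were not called, and Mbp, which encodes myelin basic protein, was measured on only 1 p75 array. Mbp stood at −6.60 on TRKA-TGF replicate 2 and between −3.53 and −2.94 on the other TRKA-TGF arrays. In p75 it stood at −3.39 on replicate 3 and between −8.45 and −7.77 on the others. Its uncalled values thus lean higher in TRKA-TGF, with overlap.

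Ion channel, pump and transporter genes of glia were lower in 5 of 13, and the median of the list was −0.26. After Scn7a, the largest difference was that of Atp1b2, a sodium pump subunit of glia, at 2.14 in p75 and −5.54 in TRKA-TGF (−7.68, adjusted p = 1.77e-08). Gja1, which encodes the gap junction protein connexin 43, was at least 19.3-fold lower. The water channel Aqp1 was lower by 4.44 and the glutamate transporter Slc1a3 by 3.24, and each lost its call under 1 of the 18 settings. A second Slc1a3 probe, measured on 1 TRKA-TGF array and on 0 p75 arrays, had a difference of 0.23, and the Slc1a3 call was lost with the mean of its probes.

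Axon guidance and adhesion genes were lower for 12 of 28 and higher for 2, with a median of −1.0. Among receptors, Plxnb3, a semaphorin receptor of glia, was lower by 6.71, the ephrin receptors Ephb2 (−6.37) and Epha4 (−4.84, and −1.58 on a second probe) were lower, and so was the netrin receptor Unc5b (−4.63). Among secreted cues, Sema3b stood at 5.70, 5.65, 5.71 and 5.71 in p75 and at 2.48, 2.93, 2.00 and 2.53 in TRKA-TGF. All 8 values of Sema3b lie above the 75th percentile of their array, and the difference was −3.20 (adjusted p = 0.000109). Sema3e was lower by 4.04, Ntn4 by 4.48 and Sema3c by 1.89. The higher members were the receptors Nrp1 (5.22, adjusted p = 0.0101) and Plxna1 (3.5, adjusted p = 4.77e-08), which together bind class 3 semaphorins.

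Neurotrophic factors and their receptors were lower in 12 of 23, with a median of −3.65. Of the ligands, Ptn, a heparin-binding growth factor, was lower by 8.79, Gdnf, the survival factor of motor and dopamine neurons, at least 27.2-fold, and the related Artn by 3.96. Of the receptors, the GDNF family co-receptors Gfra2 and Gfra1 were lower by 8.80 and 5.21, the ciliary factor receptor Cntfr by 3.77, the neuregulin receptors Erbb3 and Erbb2 by 5.32 and 3.35, and Lifr at least 3.75-fold. Other probes of Gfra2 differed by −4.04 and −5.61, and other probes of Erbb2 by −6.38 and −8.71. Ntrk3, the receptor of neurotrophin 3, was at least 59.1-fold lower by a probe that no TRKA-TGF array measured, and its second probe, measured on 2 TRKA-TGF arrays, differed by −1.86. Fgf2 and Nrg1 completed the 12, and lost their calls under 6 and 10 of the 18 settings.

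Probes of Ntrk2, the receptor of brain-derived neurotrophic factor, disagreed. The probe that represents the gene stood at −3.36 in TRKA-TGF and −4.30 in p75, and the difference of 0.93 was called higher (adjusted p = 0.0417). The other probes were measured on all 4 p75 arrays and on 0 TRKA-TGF arrays, with differences of −3.55 and −6.89. A direction for Ntrk2 cannot be given.

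Basement membrane genes were lower for 12 of 15 and higher for 0, with a median of −4.54. Glia lay down such a sheet of laminin and collagen IV around themselves. Lamb1, a laminin chain, stood at 1.83, 1.89, 1.23 and 2.14 in p75 and was at least 197-fold lower in TRKA-TGF, where no array measured it. The linker Nid1 was lower by 8.23, the laminin chain Lama2 by 7.70, and the collagens Col18a1 and Col4a2 had differences of −7.50 and −5.97. Col4a1 was at least 156-fold lower by a probe that no TRKA-TGF array measured, and a second probe, measured on all 8 arrays, differed by −2.37. Agrn, which encodes agrin, was lower by 4.54 and was measured on all 8 arrays.

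By size alone, the lower genes with a current symbol that were measured on all 8 arrays were led by Metrn, which encodes the glial secreted protein meteorin (287151, chr10:15062332-15062391). Metrn stood at 4.63, 5.06, 5.08 and 4.79 in p75 and at −3.71, −4.03, −2.53 and −3.57 in TRKA-TGF, with no overlap (difference −8.35, SE 1.21, adjusted p = 0.000239). The others of the first 10 were the matrix protein Fbln2 (−8.12), Lrrc61 (−7.91), the chemoattractant Rarres2 (−7.89), the glycolytic enzyme Aldoc (−7.75), Sox10, Cadm4, the alarm cytokine Il33 (−7.15), Lgi4 and the protease inhibitor Slpi (−6.96). A second Lrrc61 probe, measured on all 4 p75 and on 3 TRKA-TGF arrays, differed by −0.01, so the size given for Lrrc61 rests on 1 probe. The largest adjusted p of the 10 was that of Sox10.

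Of the genes with a current symbol measured on all 4 p75 arrays and on 0 TRKA-TGF arrays, Pramel36 had the largest bound. Pramel36, of the PRAME gene family (501896, chr14:15597799-15597858), stood at 5.48, 5.72, 5.64 and 5.62 in p75 and was at least 2829-fold lower. Pramef8l1, of the same family, was at least 480-fold lower. This family has many near-identical copies, so which member these probes read is uncertain. The other genes were Scn7a, the matrix gene Egflam (at least 823-fold), the collagen gene Col5a1 (516-fold), Arsi (367-fold), the nodal glial protein gene Gldn (331-fold), the carbonic anhydrase gene Car3 (283-fold), Lims2 (265-fold) and Adam23 (262-fold), each fold a lower bound.

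The TRKA-TGF cells held a myeloid set of genes that was low in p75 cells. Of 25 macrophage markers tested, 21 were higher and 0 lower, against 8.45% and 6.9% of all genes, with a median of 6.0. This list too was chosen with earlier results of these data known. All 4 TRKA-TGF arrays measured 24 of the 25, and the exception was Cd163. The summed level of the list was 8.84 to 8.95 on the TRKA-TGF arrays and 4.68 to 5.13 on the p75 arrays.

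Surface receptors of macrophages were among the clearest. Csf1r, the receptor of macrophage colony-stimulating factor (307403, chr18:57105231-57105932), stood at 4.37, 4.63, 4.82 and 4.72 in TRKA-TGF and at −0.06, −3.47, −2.53 and −3.89 in p75. The lowest TRKA-TGF array was above the highest p75 array by several units, and the difference was 7.12 (SE 0.68, adjusted p = 5.08e-06). Ptprc, the leukocyte phosphatase CD45, stood at 2.14, 2.26, 2.26 and 2.17 and was not measured on any p75 array with that probe, which puts it at least 340-fold higher. A second Ptprc probe was measured on 1 p75 array and differed by 8.65. The integrin gene Itgam, which encodes CD11b, was higher by 6.59, Adgre1, which encodes the F4/80 antigen, by 7.91, the mannose receptor Mrc1 by 8.06 and the sialic acid receptor Siglec1 at least 77.6-fold.

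Intracellular and secreted macrophage genes followed. Cd68, a glycoprotein of late endosomes, stood at 3.16, 3.09, 3.04 and 3.13 in TRKA-TGF and at −3.64, −4.65, −2.14 and −4.30 in p75 (difference 6.79, adjusted p = 5.25e-08). Lyz2, which encodes lysozyme, stood at 5.14 ± 0.10 and 0.12 ± 0.36 (mean ± SD, n = 4), and was 32.4-fold higher (adjusted p = 2.58e-09). Tyrobp, the signalling adaptor of myeloid receptors, was higher by 7.56, the actin-bundling gene Lcp1 by 9.05, the tetraspanin gene Cd53 by 8.87, the Fc receptor gamma chain gene Fcer1g by 4.76 and Aif1 by 4.76. Tyrobp varied widely among p75 arrays, at −6.80, 0.10, −3.57 and 0.03, whereas the TRKA-TGF arrays lay between 4.76 and 5.12.

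Of the 4 macrophage markers that were not called, Cx3cr1, the fractalkine receptor, stood at 3.77 in TRKA-TGF and 3.49 in p75 (difference 0.28, SE 0.21, adjusted p = 0.474). Its p75 level was the highest of the 25 markers there, above the 1.81 of Fcer1g. Cd163, the scavenger receptor for haemoglobin, was measured on 0 TRKA-TGF arrays and on 2 p75 arrays. Mertk (2.94, adjusted p = 0.138) and Fcgr3a (4.70, adjusted p = 0.097) were the others.

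Promoters of the macrophage markers, of which 21 of 25 were called higher, were read for short sequences. The letters AGAGGAAG or GAGGAAGT, forms of the site of the myeloid factor PU.1 that overlap in GAGGAAG, were searched on both strands of the 250 bases before each gene start in the RefSeq promoter table (GRCr8). They were chosen after 13 motifs had been looked at. Promoters with the letters made up 5.17% of those of tested genes, 8.57% of those of genes called higher, 4.21% of those of genes called lower and 4.9% of those not called. Of the macrophage markers, 17 had a promoter in the table and 9 of these held the letters, and of the glial markers 0 of 16. Of those 9, 3 are shown, with a 4th promoter from the lysosomal genes, and the capitals mark the matched letters. Itgam lies on the plus strand at chr1:192089342-192089591, with the match starting 152 bases before the gene start. Mrc1 lies on the plus strand at chr17:82157475-82157724, with the match at 36 bases, and Cd53 on the minus strand at chr2:197087897-197088146, with the match at 46 bases. Ctsd, the lysosomal protease cathepsin D, lies on the minus strand at chr1:206968822-206969071 and holds TCACGTGA 11 bases before its start.
Itgam: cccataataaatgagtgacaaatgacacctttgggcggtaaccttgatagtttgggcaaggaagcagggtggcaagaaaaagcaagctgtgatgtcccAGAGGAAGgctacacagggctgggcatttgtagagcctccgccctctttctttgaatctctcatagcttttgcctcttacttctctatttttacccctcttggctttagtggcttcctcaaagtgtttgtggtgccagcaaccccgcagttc
Mrc1: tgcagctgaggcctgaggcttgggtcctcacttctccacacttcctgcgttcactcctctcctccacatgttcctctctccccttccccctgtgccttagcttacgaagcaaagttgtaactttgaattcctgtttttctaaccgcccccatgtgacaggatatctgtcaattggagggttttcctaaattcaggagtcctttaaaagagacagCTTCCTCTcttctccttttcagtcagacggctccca
Cd53: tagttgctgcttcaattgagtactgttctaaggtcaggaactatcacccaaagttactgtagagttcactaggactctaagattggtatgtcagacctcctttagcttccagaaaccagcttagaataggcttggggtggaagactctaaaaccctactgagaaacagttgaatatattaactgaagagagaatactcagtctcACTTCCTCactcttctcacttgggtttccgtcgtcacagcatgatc
Ctsd: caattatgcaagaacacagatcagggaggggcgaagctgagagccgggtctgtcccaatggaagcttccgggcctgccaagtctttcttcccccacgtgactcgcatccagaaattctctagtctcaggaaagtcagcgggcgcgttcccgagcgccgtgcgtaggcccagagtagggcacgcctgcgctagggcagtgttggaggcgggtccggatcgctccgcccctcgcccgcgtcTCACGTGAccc
TCACGTGA, the core of the element read by regulators of lysosomal genes, reads the same on both strands and was in 1.17% of promoters of tested genes, 1.52% of those called higher and 0.701% of those called lower. Of 22 lysosomal genes with a promoter in the table, 2 held it, Ctsd and Lamp1. A match describes these letters alone and is no evidence of binding.

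Transcription factors of the myeloid lineage were higher in 10 of 18 and lower in 0, with a median of 4.10. Spi1, which encodes PU.1 (366126, chr3:75475250-75475309), stood at 1.07, 0.34, 2.16 and −0.56 in TRKA-TGF and at −4.97, −4.23, −4.95 and −4.88 in p75. The difference was 5.51 (SE 1.04, adjusted p = 0.00202), with no overlap. Tfec, a factor of the macrophage lineage, was higher by 8.34, Id2 by 8.26, Irf8 by 6.01, Irf5 by 4.73 and Maf by 2.98. Pparg, the fatty acid receptor that directs lipid handling, was measured on all 4 TRKA-TGF and on 0 p75 arrays and was at least 22.9-fold higher (adjusted p = 0.000172). Outside TRKA-TGF only CD90 replicate 2 measured Pparg, so its probe was kept for testing through the TRKA-TGF arrays. Its adjusted p is conditional on that selection. Cebpa, another factor of myeloid fate, was higher by 5.09, a call that was lost under 10 of the 18 settings. Runx1 stood at −1.84 in TRKA-TGF and −0.22 in p75 and was not called.

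Scavenger and phagocytosis receptors were higher in 13 of 20 and lower in 0, with a median of 5.24. Trem2, a lipid-sensing receptor of macrophages and microglia, stood at 3.87, 3.82, 4.00 and 4.08 in TRKA-TGF and at −3.19, −2.89, −3.22 and −1.48 in p75 (difference 6.64, adjusted p = 0.000235). Trem1, which amplifies inflammatory signals, was higher by 9.16, the beta-glucan receptor Clec7a by 7.25, the Fc receptor Fcgr1a by 6.32, Cd36, a receptor for oxidised lipoprotein and fatty acids, by 6.31, and the scavenger receptor Msr1 by 6.0.

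Lysosomal genes were higher in 23 of 28 and lower in 0, with a median of 1.58. That median was below the one of the receptors, and 26 of the 28 were measured on all 4 p75 arrays. Ctsd stood at 5.58, 5.67, 5.72 and 5.64 in TRKA-TGF and at 2.79, 3.04, 2.82 and 2.65 in p75, a 7.1-fold difference (adjusted p = 1.89e-07). Ctsb, another cathepsin, was higher by 2.59, Lgmn, the asparagine endopeptidase, by 3.55, and Ctss, the cathepsin of antigen-presenting cells, by 4.52. Gpnmb, a membrane glycoprotein of phagocytes, stood at 6.75 in TRKA-TGF and 1.85 in p75. Atp6v0d2, a proton pump subunit of macrophages and osteoclasts, was higher by 8.75 and Npc1, which exports cholesterol from lysosomes, by 4.96. Lamp1, a membrane protein of all lysosomes, was higher by 0.61 (adjusted p = 0.0484), a call lost under 12 of the 18 settings.

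Complement genes were higher in 11 of 20 and lower in 2, with a median of 2.98. The receptors of the complement fragments were higher, with C5ar1 by 8.17 and C3ar1 at least 82.2-fold. Of the soluble factors, Cfd, the protease factor D, was higher by 7.86 and C2 by 4.74. The C1 complex went both ways. C1qb and C1qc, chains of its recognition part, were higher by 3.15 and 2.92, whereas C1s, a protease of the same complex, was at least 28.5-fold lower and C1r, the other protease, was lower by 4.29. C1s stood at −1.02, −1.88, −0.19 and −0.98 in p75 and was measured on 0 TRKA-TGF arrays.

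Antigen presentation genes were higher in 10 of 19, with a median of 2.27. Cd83, a surface protein of activated antigen-presenting cells, was at least 84.3-fold higher. RT1-DMa and RT1-DMb, which load peptides on class II molecules, were higher by 4.93 and 4.47, and Ifi30, a lysosomal reductase, by 3.28. Cd74, the invariant chain of class II, stood at 2.61, 2.92, 2.96 and 2.51 in TRKA-TGF and at 1.59, 0.89, 0.59 and 0.49 in p75, and differed by 1.86 (adjusted p = 0.00642). Ciita, the class II transactivator, was not called (3.81, adjusted p = 0.0857).

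Chemokine genes differed in both directions, with 6 of 21 higher (28.6%, against 8.45% of all genes) and 3 lower (14.3%, against 6.9%). The median was −0.02. Ccl4, an attractant of monocytes and T cells, stood at 2.50, 2.65, 2.91 and 2.57 in TRKA-TGF and was not measured in p75, which puts it at least 464-fold higher (adjusted p = 0.000326). Cxcl13, the attractant of B cells, was higher by 5.90, the platelet factor gene Pf4 by 4.37, the membrane-bound Cxcl16 by 3.94 and Ccl3 at least 3.6-fold. In p75 cells Ccl20 stood at −0.51, −0.11, −2.43 and −1.92, and it was at least 24.4-fold lower in TRKA-TGF. The neutrophil attractant Cxcl1 was lower by 4.12.

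Cytokine and receptor genes were higher in 11 of 25 and lower in 3, with a median of 1.77. The receptor Il10ra was higher by 7.42, the GM-CSF receptor chain Csf2ra by 3.91, Osm, a cytokine of the IL-6 family, by 5.0, and Il18 by 4.77. Spp1, which encodes osteopontin, stood at 3.73 in TRKA-TGF and 0.22 in p75 (11.5-fold, adjusted p = 3.41e-07). All 3 lower genes have a part in signalling by IL-6 or by alarm cytokines. Il6 itself stood at −0.08, −1.32, −0.69 and −1.79 in p75 and was at least 29.5-fold lower, its signal transducer Il6st was lower by 4.13, and Il33 by 7.15.

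Toll-like receptors and their signalling genes were higher in 10 of 19, with a median of 3.99. Of the receptors for nucleic acids, Tlr8 was higher by 7.80, Tlr13 by 6.27, Tlr9 by 3.57, and Tlr7 at least 23.8-fold. Of the receptors for bacterial lipids, Tlr2 was higher by 6.76 and Tlr4 by 3.99, together with its co-receptors Cd14 (6.55) and Ly96 (5.71). The inflammasome genes Pycard and Casp1 were higher by 7.12 and 5.17. On the p75 arrays Cd14 stood at −1.34, −8.49, −0.48 and −1.25, and it was not measured on the lowest of these.

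Interferon response genes were higher in 4 of 16 (25%, against 8.45% of all genes), with a median of 1.13. Ifit2 was higher by 5.74 and Ifit3 at least 18.9-fold, and Bst2 (2.11) lost its call under 9 of the 18 settings.

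Genes of lipid uptake, storage and export were higher in 12 of 23 and lower in 0, with a median of 3.35. Lpl, the lipoprotein lipase that frees fatty acids for uptake (24539, chr16:22533294-22533353), stood at 2.50, 2.40, 2.12 and 2.38 in TRKA-TGF and was at least 375-fold higher. Besides Fabp4, the carriers Fabp5 and Fabp3 were higher by 6.34 and 6.13. Abcg1 and Abca1, which export cholesterol, were higher by 8.47 and 3.35, the lipid droplet gene Plin2 by 2.90 and Dgat2, which makes triglyceride, by 7.05. Abca1 stood at 3.82, 3.81, 3.62 and 3.47 in TRKA-TGF and at 0.39, 0.75, 0.42 and −0.26 in p75, with no overlap.

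Genes of fatty acid and cholesterol synthesis ran the other way, with 10 lower and 1 higher of 23 and a median of −1.76. Hmgcs1, an early enzyme of the cholesterol pathway, stood at 3.63, 3.13, 3.22 and 3.30 in p75 and at −0.33, −0.28, 0.38 and −0.35 in TRKA-TGF (difference −3.47, adjusted p = 2.48e-07). Fdps, a later enzyme of that pathway, was lower by 1.76. The desaturases Fads1, Fads2 and Scd were lower by 6.35, 5.45 and 3.95, and the elongase Elovl6 by 7.13. A second Scd probe, also measured on all 8 arrays, differed by −1.45. Srebf1, the regulator of fatty acid synthesis, was the 1 higher member (4.87, adjusted p = 0.000379).

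Heme and iron handling genes were higher in 10 of 18 and lower in 1, with a median of 2.33. Slc11a1, the metal transporter of phagocytic vesicles (316519, chr9:73723371-73723827), stood at 4.12, 4.40, 4.53 and 4.25 in TRKA-TGF and was at least 1476-fold higher. Slc40a1, the iron exporter ferroportin, was higher by 9.23, the ferritin genes Ftl1 and Fth1 by 3.11 and 2.22, and the heme oxygenase gene Hmox1 by 3.02. Hmox1 stood at 5.36, 5.41, 5.37 and 5.32 in TRKA-TGF and at 2.55, 2.00, 2.19 and 2.63 in p75. Hp, which encodes haptoglobin, was the lower member (−4.31, adjusted p = 0.000265).

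By size, the higher genes with a current symbol that were measured on all 8 arrays were led by Cd37 and Cybb. Cybb, the catalytic subunit of the phagocyte NADPH oxidase (66021, chrX:25518505-25518564), stood at 5.32, 5.36, 5.41 and 5.20 in TRKA-TGF and at −5.22, −5.79, −1.55 and −5.18 in p75 (difference 9.76, SE 0.69, adjusted p = 2.39e-07). Cd37, a leukocyte tetraspanin (29185, chr1:95711715-95711774), differed by 9.79, with p75 levels of −6.56, −6.62, −5.27 and −6.23 that lie near the lowest signal counted as above background. The others of the first 10 were the sodium pump subunit Fxyd2 (9.67), the ETS factor Etv1 (8.48), the inhibitory receptor Lilrb4 (8.12), the leukocyte myosin Myo1f (7.98), the phosphatase Inpp5d (7.82), Tlr8, the cytoskeletal adaptor Abi3 (7.78) and the survival gene Bcl2a1 (7.76). The largest adjusted p of the 10 was 0.000668.

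Of genes with a current symbol measured on all 4 TRKA-TGF and on 0 p75 arrays, the largest bounds after Fabp4 and Slc11a1 were those of Ccl4, Igsf7 l1 (432-fold), Ms4a6b (428-fold), Tm6sf1 (409-fold), the signalling gene Vav1 (383-fold), Lpl, Pilrb1l2 (365-fold) and the receptor Gpr34 (335-fold). Igsf7 l1, Ms4a6b and Pilrb1l2 belong to families with close copies, so the copy that each probe reads is uncertain.

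**Figure D3:**
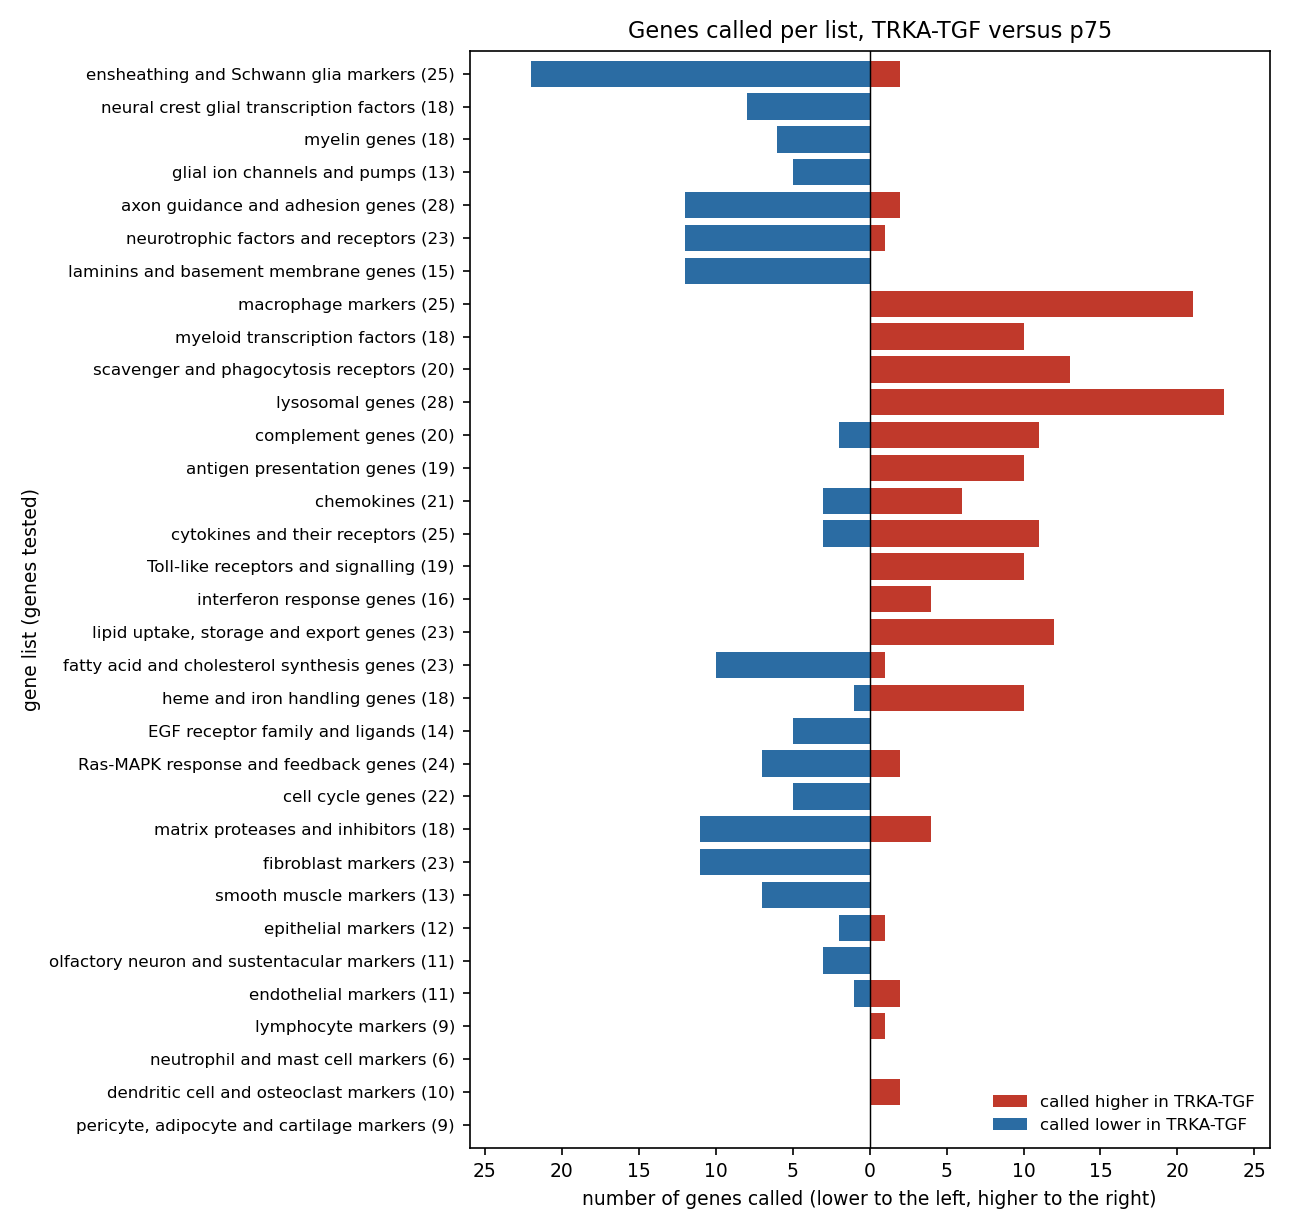
Number of genes called higher (red, to the right) and lower (blue, to the left) in TRKA-TGF than in p75 for each of 33 gene lists, with the number of genes tested in parentheses. The glial, guidance, neurotrophic and basement membrane lists extend to the left, the macrophage and lysosomal lists to the right with 21 of 25 and 23 of 28, and the neutrophil and mast cell and the pericyte, adipocyte and cartilage lists have no call.

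EGF receptor family genes and ligands, the family that TGF-alpha acts through, were lower in 5 of 14 and higher in 0, with a median of −0.99. Besides Erbb2 and Erbb3, the ligands Hbegf and Btc were lower by 6.36 and 4.52. Hbegf stood at 0.35, 0.13, −0.73 and −0.42 in p75 and was measured on 1 TRKA-TGF array, at −2.55. Nrg1 was the last of the 5. Areg, another EGF receptor ligand, had a difference of −0.09 (adjusted p = 0.981).

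Ras and MAP kinase response genes were higher in 2 of 24 (8.33%, against 8.45% of all genes) and lower in 7 (29.2%, against 6.9%), with a median of −0.72. The higher genes were the ETS factors Etv1 (8.48) and Etv5 (2.57, adjusted p = 0.00985, and 4.97 on a second probe), whereas the related Etv4 was lower by 3.16, a call lost under 7 of the 18 settings. The feedback inhibitors Spry1 and Spry2 were lower by 3.40 and 2.24. Immediate early genes were lower by smaller amounts. Egr1 stood at −1.08, −0.87, −1.05 and −0.95 in TRKA-TGF and at 0.87, 1.23, 1.19 and 0.99 in p75 (−2.06, adjusted p = 4.69e-06), Ier3 differed by −2.0, Fos by −1.06 and Jun by −0.81, and the Jun call was lost under 7 of the 18 settings. Dusp6, the phosphatase of ERK, was not called (1.12, adjusted p = 0.0711).

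Cell cycle genes were lower for 5 of 22 and higher for 0, with a median of −1.69. Rrm2, a subunit of the enzyme that makes DNA precursors, stood at −1.30, −2.12, −0.61 and −1.22 in p75 and was at least 23.3-fold lower (adjusted p = 3.42e-06), and a second probe differed by −1.47. Cenpf was lower by 7.21 on 1 probe and by 2.99 on another that all 8 arrays measured, Top2a by 4.00 and Ccnb1 by 4.77, and the Ccnb1 call was lost under 7 of the 18 settings. Mki67, the antigen of dividing cells, stood at −0.03 in TRKA-TGF and 1.41 in p75 (−1.45, adjusted p = 0.00965). Of its 3 probes, 1 differed the other way, by 1.52, and the call was lost with the mean of all probes. Pcna, a clamp of the replication machinery, was not called, with a difference of 0.32.

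Matrix proteases and their inhibitors were split, with 4 higher and 11 lower of 18 and a median of −2.73. In TRKA-TGF, Mmp12, the macrophage elastase, was higher by 8.40, Plau, the urokinase, by 5.21, its receptor Plaur by 2.11 (a call lost under 1 of the 18 settings) and the inhibitor Timp2 by 2.53. In p75, Plat, the other plasminogen activator, stood at 4.79, 4.77, 4.81 and 4.88, against −0.44, −0.59, −1.41 and −1.12 in TRKA-TGF (−5.70, adjusted p = 2.15e-09). The inhibitor Serpine2 was lower by 4.03, Timp3 by 6.54, Adamts1 by 6.59 and Mmp2 by 4.07. Plau and Plat thus differed in opposite directions, and both sets of arrays were without overlap.

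Markers of other cell types that a culture of the mucosa could hold were read in the same way. Fibroblast markers were lower in 11 of 23 and higher in 0, with a median of −3.39 and summed levels of 3.12 to 4.15 in TRKA-TGF and 8.04 to 8.12 in p75. Col1a1, a chain of type I collagen, stood at 7.10, 7.03, 7.15 and 7.10 in p75 and at 2.90, 2.54, 1.58 and 3.15 in TRKA-TGF (−4.55, adjusted p = 8.45e-08). Col1a2 was lower by 5.55, Postn, which encodes the matrix protein periostin, by 5.43 and Fn1, fibronectin, by 3.14. Dcn and Lum, proteoglycans that fibroblasts make, were measured on 3 p75 and 2 TRKA-TGF arrays each and were not called (adjusted p = 0.571 and 0.528). The part of other cells in these matrix genes was not tested.

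Smooth muscle markers were lower in 7 of 13, with a median of −2.71. Tagln, an actin-binding protein, stood at 3.95, 4.43, 4.39 and 4.35 in p75 and at −1.50, 0.89, −2.64 and −0.29 in TRKA-TGF (−5.16, adjusted p = 0.000389). Cald1 and Cnn1 were lower by 6.91 and 2.71. Acta2, smooth muscle actin, was dim in both, at −4.77 in p75 and −5.72 in TRKA-TGF, and was not called. The defining gene Myh11 differed by −0.03.

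Endothelial markers gave 2 higher (18.2%, against 8.45% of all genes) and 1 lower (9.09%, against 6.9%) of 11. Tie1 was at least 90.7-fold higher in TRKA-TGF and Esam higher by 7.37, whereas Cldn5 was lower by 3.88. Pecam1, which endothelial cells share with monocytes, was dim, at −6.08 and −8.19, and was not called. Of the olfactory neuron and sustentacular markers 3 of 11 were lower (27.3%, against 6.9% of all genes). Gng8 was lower at least 20.1-fold, Adcy3 by 4.27 and Gap43 by 4.97, and the Gap43 call was lost under 7 of the 18 settings. Omp, the defining marker of mature olfactory neurons, stood at −4.70 in TRKA-TGF and −6.34 in p75 and was not called. Of 12 epithelial markers, Krt19 was at least 13.5-fold lower, Epcam lower by 4.68 with overlapping arrays and Cldn7 at least 2.84-fold higher, with the last 2 calls lost under 9 and 5 of the 18 settings. That is 16.7% of the list lower and 8.33% higher, against 6.9% and 8.45% of all genes.

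Markers of other leukocytes were looked at too, and many did not pass the filter. Of 17 lymphocyte and 13 neutrophil and mast cell markers with a probe, 9 and 6 were tested. Cd4, which rat macrophages carry as well as helper T cells, was the 1 lymphocyte marker called of 9 (11.1%, against 8.45% of all genes). It stood at 4.02, 3.93, 4.46 and 3.88 in TRKA-TGF and −7.17, −3.37, −5.19 and −3.40 in p75 (8.85, adjusted p = 5.59e-07). Cd3e, a chain of the T cell receptor complex, was at −6.41 and −7.02 and was not called. Of 6 neutrophil and mast cell markers 0 were called. Of 10 dendritic cell and osteoclast markers, Itgax, which encodes CD11c, was higher by 5.09, and Oscar by 2.39, a call lost under 7 of the 18 settings. These calls are 20% of the list, against 8.45% of all genes. Flt3, a receptor of dendritic cell precursors, was at −3.91 and −4.94 and was not called. Of 9 pericyte, adipocyte and cartilage markers 0 were called, although Fabp4, Lpl and Pparg are also expressed in fat cells. Of all genes 15.3% were called, so 0 calls in lists of 6 and 9 genes is no result about them.

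Some of the genes that set TRKA-TGF apart from p75 also differed between TRKA-TGF and the unconditioned TRKA cells, and others did not. Fabp4 had a mean of 1.72 in TRKA and 0.82 in CD90 cells, and TRKA-TGF exceeded TRKA by 3.98 (adjusted p = 0.00021). Lpl was measured on 1 TRKA array, and TRKA-TGF exceeded TRKA by 8.26 (adjusted p = 8.93e-05), as it did for Slc11a1 by 6.75 (adjusted p = 0.0029). No TRKA array measured Cxcl13 or Pparg, which were at least 227-fold (adjusted p = 0.000361) and 16.2-fold higher in TRKA-TGF (adjusted p = 0.000351). The adjusted p of Pparg is again conditional, as its probe was kept through the TRKA-TGF arrays. For Csf1r, Cybb and Apoe the differences between TRKA-TGF and TRKA were 0.29, 0.53 and 0.04 and were not called (adjusted p = 0.799, 0.623 and 0.928). Cd163 stood at 4.87 in TRKA, where all 4 arrays measured it, and was at least 1693-fold lower in TRKA-TGF, where no array did (adjusted p = 1.34e-05). Without the TRKA arrays the Cd163 probe would not have passed the filter, so its adjusted p is conditional on that selection too.

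Plat, S100b and Sema3b, called lower in TRKA-TGF than in p75, were higher in TRKA-TGF than in TRKA. Plat and S100b were not measured on any TRKA array and were at least 28.0-fold (adjusted p = 8.04e-10) and 26-fold higher in TRKA-TGF (adjusted p = 7.35e-07). Sema3b was higher by 5.76 (adjusted p = 5.93e-07). Ngfr, whose difference from p75 was not called, was at least 38.0-fold higher than in TRKA, where no array measured it (adjusted p = 0.000463). TRKA-TGF and TRKA arrays lie on different slides, so slide and population cannot be told apart here either. Fewer spots were well above background on the TRKA arrays (54.5%). Their median signal before scaling averaged 31.8, against 153.5 on the TRKA-TGF arrays. The median SD between replicates was 1.08 in TRKA and 0.54 in TRKA-TGF, whereas the fit shares 1 spread over the groups. The part of these gaps in the values against TRKA was not tested.

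**Figure D4:**
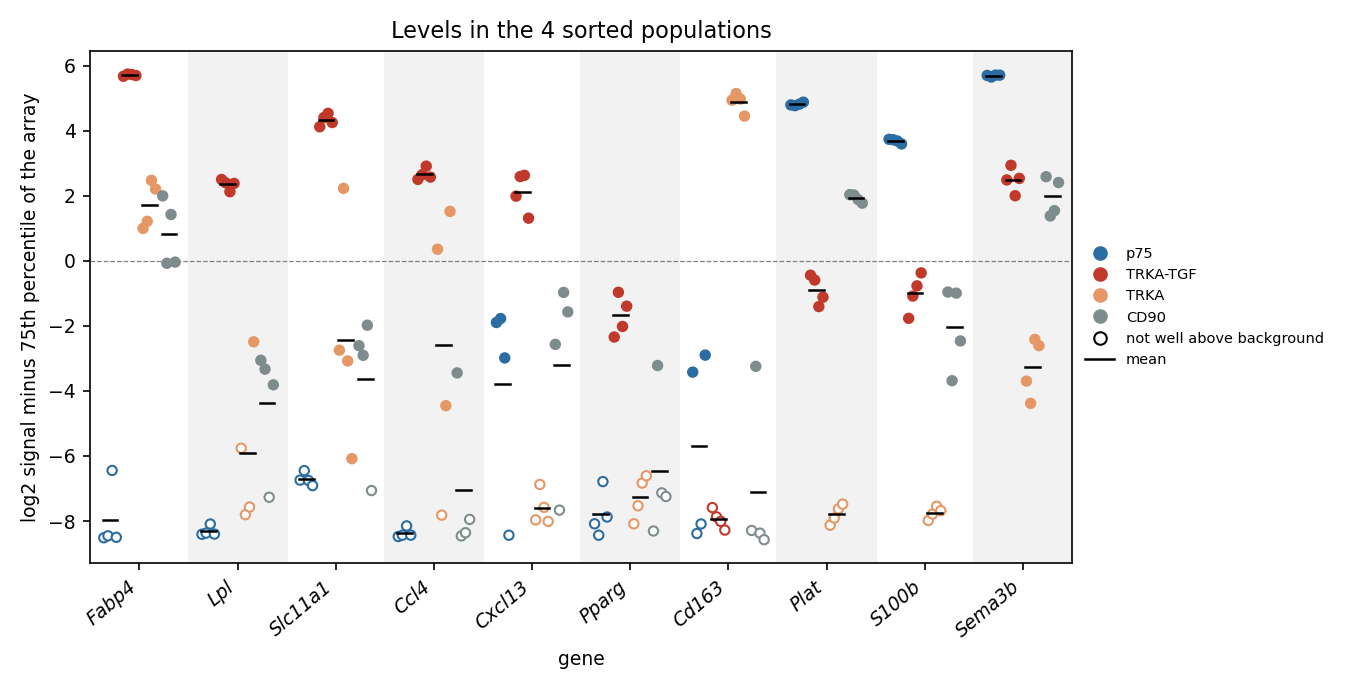
Level of 10 genes on the 4 arrays of each of the 4 sorted populations (blue p75, red TRKA-TGF, orange TRKA, grey CD90), as log2 signal minus the 75th percentile of the array, with open circles where the probe was not well above background and a bar at the mean. Fabp4, Lpl, Slc11a1 and Pparg are highest in TRKA-TGF, Cd163 is highest in TRKA, and Plat, S100b and Sema3b are highest in p75, with TRKA-TGF above TRKA for these 3.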

How the data were processed

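RNA of 4 TRKA-TGF and 4 p75 samples was read on one-colour Agilent rat arrays, 1 array per sample, after lysis, bead isolation of mRNA and global PCR amplification, per the labels' protocols. The authors deposited the scanner output, with a processed intensity for each spot, made with Agilent Feature Extraction 10.7.3.1 and positions of the rn4 build per the file headers (10.5 per the submitters' processing notes). A second table that the authors deposited holds log2 values with scale and centring unstated. These matched centred quantile-normalized log2 intensities of the same arrays (slope 1.00), with column medians from −0.03 to 0.20, and served as an alternative.

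Each processed intensity was taken as log2 minus the 75th percentile of its array, without control spots. A probe was kept when well above background on at least 4 of 16 arrays, counting an array where at least 50% of its spots were. Probes measured in a single population could pass this filter through it alone, and the adjusted p of such a probe is conditional on that selection. The probe with the highest mean represented a gene. Of 30367 probes, 18809 were named by RefSeq accession, 2533 by symbol, 407 by synonym and 8618 by the file's own name only, with the RefSeq table of GRCr8. All 16 arrays entered a limma fit (lmFit, eBayes) with 4 groups, Benjamini-Hochberg adjusted over all genes, and the steps were tested on simulated data. Versions were R 4.3.3, limma 3.58.1, Python 3.11.15, numpy 2.4.6, pandas 2.3.3 and scipy 1.17.1.

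The text names genes of the sort markers, Tgfa, Egfr, Fabp4 and Scn7a, among genes with a current symbol the 10 largest called differences in each direction measured on all 8 arrays without overlap and the 10 largest bounds in each direction, and from each list up to 8 called members with the largest differences. Some genes that this rule picks are not reported here. Other genes, among them further list members and uncalled ones, were chosen after their values were seen. The members and lists were chosen with earlier results of these data known. Alternatives covered the background correction, normalization, filter, arrays fitted, array weights, prior trend, replicate block, probe averaging and leaving out each array.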

Additional observations from a re-analysis of the deposited data

Results flagged for a closer look

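For each gene named in the report, the 4 values of each population with at least 1 array above background were looked at, 461 sets in all, and 51 sets without such an array were not. In 41 sets the highest or lowest array stood apart by Dixon's criterion, 20 in TRKA-TGF and 21 in p75. Chance flags about 1 in 20 groups of normally distributed values. Some sets mix arrays above background with arrays at it, such as Hbegf in TRKA-TGF, and that rate does not hold for them. Values are levels, as log2 signal minus the 75th percentile of the array.

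TRKA-TGF replicate 1 stood above the other arrays of its population for Aldoc at −3.10, Gfra2 at −0.84 and Mmp12 at 4.11. TRKA-TGF replicate 2 stood above the other arrays of its population for Areg at −4.30, Gpr34 at 2.61 and Top2a at −4.29. TRKA-TGF replicate 3 stood above the other arrays of its population for Adcy3 at −2.56, C5ar1 at 3.35 and Hmgcs1 at 0.38. TRKA-TGF replicate 4 stood above the other arrays of its population for Artn at −2.54, Ccnb1 at −4.25, Cxcl16 at 1.43, Hbegf at −2.55 and Id4 at −6.63.

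TRKA-TGF replicate 1 stood below the other arrays of its population for Agrn at −2.36 and Atp1b2 at −6.70. TRKA-TGF replicate 2 stood below the other arrays of its population for Col4a2 at −4.11 and Mbp at −6.60. TRKA-TGF replicate 3 stood below the other arrays of its population for Npc1 at −0.15. TRKA-TGF replicate 4 stood below the other arrays of its population for Id2 at 0.92.

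p75 replicate 1 stood above the other arrays of its population for Adamts1 at 1.95 and Pcna at 0.84. p75 replicate 2 stood above the other arrays of its population for Egfr at −1.10, Lcp1 at −4.41 and Spi1 at −4.23. p75 replicate 3 stood above the other arrays of its population for Cd53 at −4.30, Cybb at −1.55, Etv1 at −4.97, Fxyd2 at −1.96 and Mbp at −3.39. p75 replicate 4 stood above the other arrays of its population for Irf8 at −4.61 and Top2a at −1.51.

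p75 replicate 1 stood below the other arrays of its population for Gfra1 at −0.61, Pramef8l1 at 2.98 and Tagln at 3.95. p75 replicate 2 stood below the other arrays of its population for Cd14 at −8.49 and Sox8 at −1.70. p75 replicate 4 stood below the other arrays of its population for C1qb at −1.46, Csf2ra at −0.83, Egr2 at −7.81 and Rxrg at 1.77.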

How the results depend on the processing

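With array weights, 2967 genes were called higher and 2170 lower, against 1736 and 1419, and with only the 8 arrays compared 2593 and 1924. The fit with only the 8 arrays and all settings other than array weights stayed within 1.5 times the main counts. Among these were quantile normalization (1827 and 1692), normexp background correction (2250 and 1536), the authors' deposited values (1827 and 1691) and no filter on dim probes (1712 and 1366). Leaving out 1 array at a time gave 1332 to 1495 higher and 1199 to 1254 lower. The difference in the share of spots above background then ran from −0.91 to −2.30 percentage points. Higher genes were 55% of the calls, and 51.9 to 59.4% over all settings. The median of all genes was 0.06 under quantile normalization against 0.19.

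The limma call of Ngfr depended on the setting. It passed under quantile normalization (adjusted p = 0.028), the authors' deposited values (0.0281), normexp (0.000222), array weights (0.0198), a filter within groups (0.047) and with only the 8 arrays (0.000496), and its adjusted p ran up to 0.142 without 1 array. Ntrk2 turned to −3.17 with the mean of all its probes (adjusted p = 0.000232), which are probes that disagree. Of genes not called, Areg turned to 0.26 with normexp and ran from −0.92 to 0.45 without 1 array. Myh11 turned to 0.12 with the mean of its probes and ran from −0.52 to 0.32, and Egfr ran from −0.33, without TRKA-TGF replicate 2, to 3.11. For Areg, Myh11 and Egfr the cause was not tested. Of 232 called genes named, 18 lost the call under some setting that kept all TRKA-TGF and p75 arrays. On leaving out an array 15 lost it, and many of these are among the 18.

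Whether same-numbered samples are pairs was left undecided. Deviations of same-numbered arrays correlated at r = −0.03 to 0.01, and those of different-numbered arrays at −0.03 to 0.04. These similar ranges show no sign of pairing but cannot exclude it, and the main fit treated the samples as unpaired. With the replicate number as a block, 1612 genes were called higher and 1348 lower. Arrays give no counts, and their number, 4 per population, limits the precision. Values near the background have only a bound.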
